A study of Mus musculus with 21 samples.

Results

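Private single-nucleotide variants (SNVs) in unique sequence were examined in mouse embryonic stem cells (ESCs) sequenced by exome capture. A site was taken when it stood in exactly 1 of the 10 ESC variant lists and when the deposited annotation placed it neither in a segmental duplication nor in a repeat. The members were thus chosen by the presence or absence of a call in the 10 lists and by that annotation. This gave 542 sites of 4358 distinct ESC sites. In unique sequence there were 1688 distinct sites in all, of which the remaining 1146 were recurrent, meaning that 2 to 10 lists held them. Privacy was therefore read from the lists themselves: a list holds calls only, and the reads of the other libraries at a private position were not available for comparison.

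ESCs of the strain that the labels give as C57BL6X129S6F1 were grown in 5 media, with 2 libraries for each medium, numbered 3 and 5. 2iL-F was N2B27 medium with leukaemia inhibitory factor (LIF, 1000 IU), CHIR99021 (3 µM, an inhibitor of GSK3) and PD0325901 (1 µM, an inhibitor of MEK), without feeder cells. 2iL was the same medium on feeders. A2iL combined LIF, CHIR99021 (3 µM) and CGP77675 (1.5 µM, an inhibitor of Src) on feeders. LCDM combined LIF, CHIR99021 (3 µM) and the additives written Dim and Mih (2 µM each) on feeders. SL held 15% serum and LIF on feeders. All 5 media held LIF at the same dose. Every ESC list was called against the same control, genomic DNA of mouse embryonic fibroblasts (MEFs). The labels do not say what the numbers 3 and 5 stand for or whether the 2 libraries came from separate cultures, so p-values measure only the spread between these libraries, which may be technical.

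A somatic variant caller compares the bases read in a sample with those read in a control. It keeps positions where the sample shows an alternative base that the control lacks or shows less. Here the control held at least 1 alternative read at 42 of the 542 private sites (7.75%). The alternative-allele fraction, the share of reads with that base, falls with the share of cells that carry the change, and a heterozygous autosomal change carried by every cell stands near 0.5. Base quality is the sequencer's own estimate of how reliable the base letters are. Cultured ESCs divide without limit and acquire changes that may be present in only some cells of a dish, and exome capture reads coding exons with the intron and intergenic stretches beside them. The media are of interest because inhibitors of signalling kinases keep ESCs in a naive state and are known to alter DNA methylation and genome stability.

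No whole genome sequence was used here. Flanking sequence was available from RefSeq (GRCm38.p6, the assembly also called mm10) for the few that fell within a promoter window or a microRNA, and all 6 windows examined held the reference base that the lists gave. The first 3 sequences below show the reference base at the private site as a capital, at place 16 of 30. The fourth is a mature microRNA with its seed (bases 2 to 8) in capitals.
Ttc39d, chr17:80215924-80215953, plus strand: tccaaagacacgaggAcaatgacgagtacc
Tmem147, chr7:30729542-30729571, minus strand: gcgacgtaccaggccGgactacagttccca
Olfr307, chr7:86336438-86336467, minus strand: gtaataattttggatAataccactttcttt
mmu-miR-682, chr13:75645119-75645139, plus strand: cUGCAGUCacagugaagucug
The Ttc39d site (position 80215939) is shown because it is coding: it changed residue 9, D9G, on 4 of 85 reads in 2iL library 5. The Tmem147 site lay 22 bases before the gene's start and rested on 2 of 8 reads in 2iL-F library 3. The Olfr307 site, 58 bases before the start of an olfactory receptor gene, is a T>G call with 5 of 7 reads at a base quality of 27 in LCDM library 3, the kind of call described next. In mmu-miR-682 the change, G14A counted from the 5′ end of the mature strand, lay outside the seed and had 5 of 106 reads in 2iL-F library 3. A call of 2 other libraries lay 177 bp from it.

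One library stood apart. In A2iL library 5 the private sites had a median base quality of 21, against 36.5 in SL library 3 and 37 in each of the other 8 libraries. Of its 70 private sites, 42 had a base quality under 30 and 41 were T>G changes (58.6%, Wilson 95% interval 46.9 to 69.4%, for counting error only). All 41 of these T>G calls lay below a quality of 30. Values without this library stand beside the results below that it bears on. The whole lists did not show such a gap in size or depth: they held 1762 to 1858 calls at a median depth of 54 to 72 reads.

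The number of private unique-sequence sites per library was 56 and 48 in 2iL-F, 59 and 72 in 2iL, 45 and 70 in A2iL, 47 and 52 in LCDM and 50 and 43 in SL (libraries 3 and 5 in that order throughout). They made up 2.44 to 3.88% of a library's calls. The 2iL libraries and A2iL library 5 were highest, and SL library 5 was lowest. Condition means were 52 ± 5.66 in 2iL-F, 65.5 ± 9.19 in 2iL, 57.5 ± 17.7 in A2iL, 49.5 ± 3.54 in LCDM, with 46.5 ± 4.95 in SL (SD, n = 2 each). No difference among the 5 conditions passed the threshold of 0.05 (exact permutation F test over the 945 partitions of 10 libraries into 5 pairs, one-sided p = 0.370, and 0.152 without A2iL library 5). Against the mean of the other 4 conditions, 2iL had 14.1 more sites (exact permutation, two-sided p = 0.0444, adjusted over the 5 conditions 0.222, where a lone deviating condition cannot go below 0.111).

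The order of the libraries changed when low-quality calls were set aside. Sites with a base quality of at least 30 numbered 46 and 37 in 2iL-F, 56 and 64 in 2iL, 35 and 28 in A2iL, 43 and 49 in LCDM and 36 and 40 in SL. Both 2iL libraries then lay above all 8 others, and A2iL library 5, among the highest before, was the lowest. The F test among conditions then passed the threshold (exact permutation, one-sided p = 0.0169, not adjusted over measures or alternatives). The 2iL mean was 60, against 39.25 over the other 4 conditions, a difference of 20.75 sites (exact permutation, two-sided p = 0.0222, adjusted 0.111, the smallest this design can give). Without A2iL library 5, or without 2iL library 5, the F test missed the threshold at 0.0519 each, and without any of the other 8 libraries it lay between 0.0148 and 0.0402 (exact permutation). With the library number as a block it was 0.0583 (exact permutation). The complementary count, sites with a quality under 30, was 10 and 11 in 2iL-F, 3 and 8 in 2iL, 10 and 42 in A2iL, 4 and 3 in LCDM and 14 and 3 in SL, and did not differ among conditions (exact permutation F test, one-sided p = 0.308, and 0.556 without A2iL library 5, an alternative added after seeing the data).

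**Figure D1:**
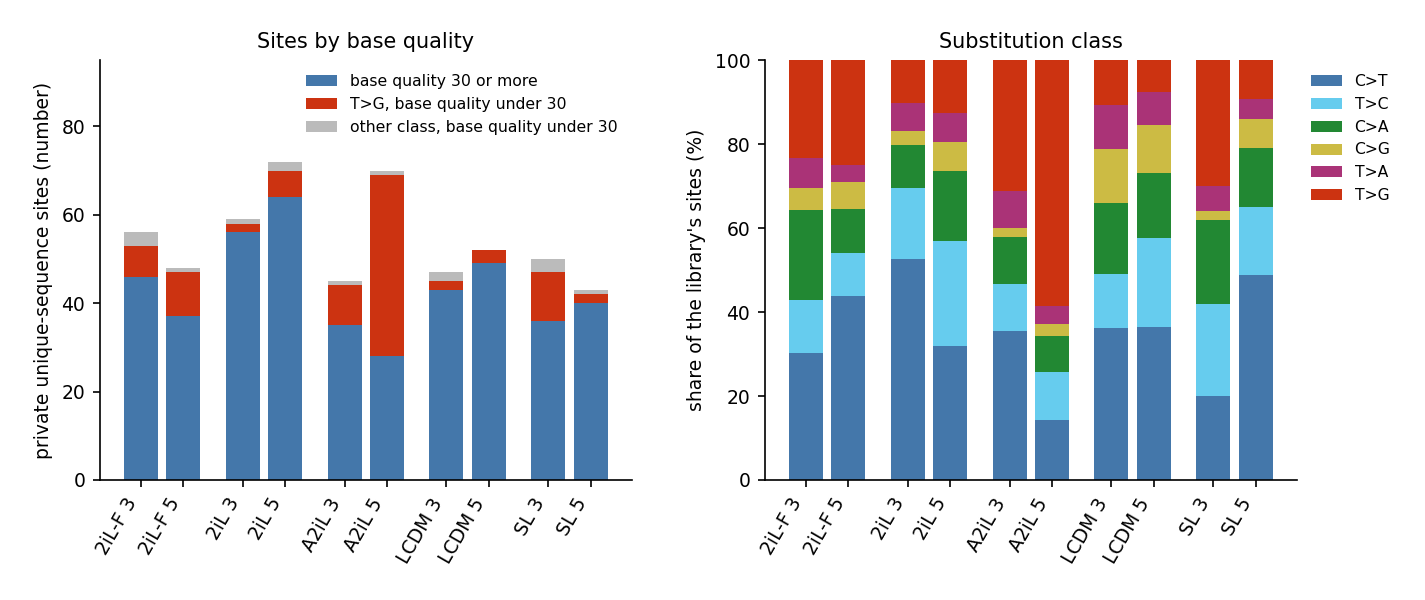
Left, number of private unique-sequence sites per library (bars from 0), stacked by base quality of at least 30 (blue), T>G under 30 (red) and other classes under 30 (grey). Right, share of the 6 strand-folded substitution classes in percent of the library's sites. Libraries are named by condition and number. A2iL 5 holds 41 low-quality T>G sites, and the blue bars of the 2iL libraries, 56 and 64, are above those of all other libraries.

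Substitutions were folded by strand into 6 classes. Among the 542 sites, C>T changes numbered 185, T>G 123, T>C 88, C>A 78, T>A 36 and C>G 32. The T>G class was spread unevenly over libraries, with 13 and 12 sites in 2iL-F, 6 and 9 in 2iL, 14 and 41 in A2iL, 5 and 4 in LCDM and 15 and 4 in SL. The C>T class had 17 and 21 sites in 2iL-F, 31 and 23 in 2iL, 16 and 10 in A2iL, 17 and 19 in LCDM and 10 and 21 in SL. No class share differed among conditions past the threshold, the lowest adjusted p over the 6 classes being 0.235, for T>G and for C>G alike (exact permutation F tests, one-sided). Libraries of the same condition could be far apart, as in SL, where T>G made up 30.0% of sites in library 3 and 9.30% in library 5.

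For 2 classes a condition stood at the edge of what the design can show. The T>G share averaged 44.8% in A2iL, against 16.1% over the other 4 conditions, with 31.1% in A2iL library 3 and 58.6% in library 5. At a quality of at least 30 the A2iL share was 7.14% (14.3% in library 3 and 0% in library 5), against 6.93% over the others, a difference of 0.22 points (exact permutation, two-sided p = 0.978). The C>G share averaged 12.2% in LCDM, against 4.50% over the others, and its 2 libraries, with 12.8 and 11.5%, had the highest values of the 10. Over all sites, each of these 2 contrasts had an exact permutation p of 0.0222 (two-sided) and an adjusted p of 0.111, the smallest possible. The C>G value rests on 6 sites in each LCDM library. Without A2iL library 5 the adjusted p of the F test was 0.444 for both classes (exact permutation), and the A2iL value is then that of library 3, beside which SL library 3 had 30.0%.

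Most sites of low base quality were T>G, though 30 of the 123 T>G sites had a quality of at least 30. Of the 542 private sites 108 (19.9%) had a base quality under 30, and 93 of these 108 were T>G. Those 93 had a median quality of 17 (lowest 12, highest 29), a median depth of 34 reads, a median of 7 alternative reads and a median fraction of 0.225. They came from all 10 libraries, 41 of them from A2iL library 5, 11 from SL library 3 and 10 from 2iL-F library 5. On the reference strand 48 were written as T>G and 45 as A>C. Introns held 76 of the 93, and 86 had no call of another ESC list within 10 kb. The MEF control held at least 1 alternative read at 20 of them (21.5%).

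The remaining sites had another profile. The 404 sites of other classes with a quality of at least 30 had a median fraction of 0.094, 98 of them were exonic and 161 intronic, and the control held alternative reads at 14 (3.47%). The 30 T>G sites with a quality of at least 30 had a median fraction of 0.2095 on a median of 3.5 alternative reads, and none came from A2iL library 5. Across the 9 other libraries T>G still made up 82 of 472 sites (17.4%), with 52 of the 82 under a quality of 30. Quality, class and location thus moved together over these sites, and what part each has in the others was not tested.

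**Figure D2:**
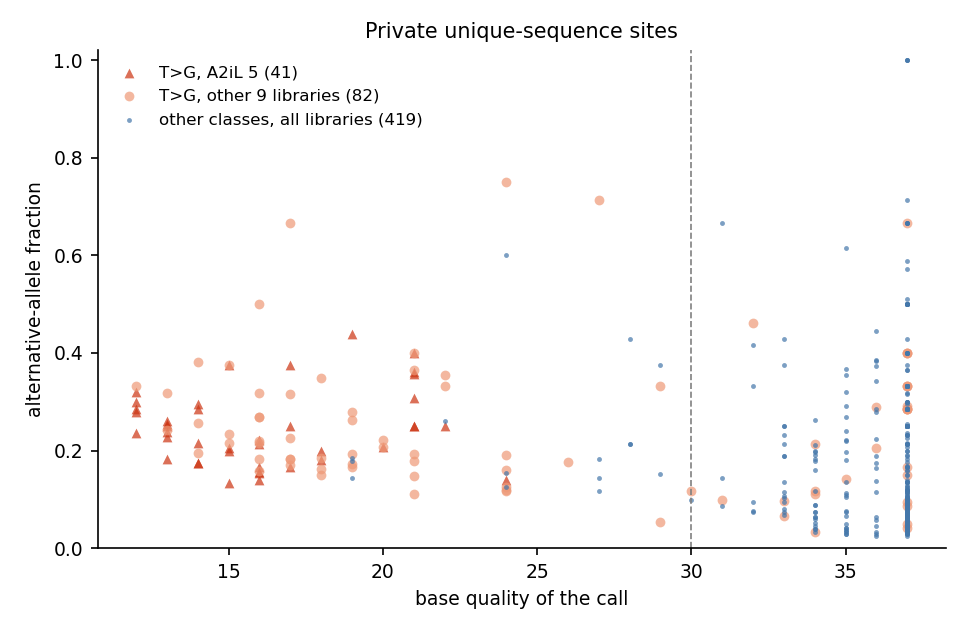
Base quality of each private unique-sequence site (x axis) against its alternative-allele fraction (y axis), with T>G sites of A2iL 5 as triangles, T>G sites of the other 9 libraries as circles and other classes as dots. The dashed line marks a quality of 30. Of the 108 sites left of the line 93 are T>G, and the other classes crowd at a quality of 37 and low fractions.

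Private sites were next set against recurrent calls of the same library, a comparison that holds the library's depth and run fixed. The values below that the calling itself leans on, depth and fraction, are given as a description, since the choice of private sites rests on the same calls. Median depth of private sites was 33.5 to 50 reads over the 10 libraries, against 58 to 83 for recurrent calls, and every library had the lower value for its private sites. The median fraction was 0.091 to 0.219 for private sites, against 0.244 to 0.276 for recurrent calls, and the 2 ranges did not overlap. Over all private sites, just inside the rule, the median fraction was 0.145 and the median depth 40 reads, against 0.111 and 63 for sites held by exactly 2 lists, just outside it. Private sites with a base quality of at least 30 had a median fraction of 0.098 and a median depth of 45 reads. Of the calls at sites in exactly 2 lists, 1.13% had a quality under 30.

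Class and location differed within libraries as well. T>G made up 21.8% of private sites, against 7.23% of recurrent calls (means over libraries), higher in 10 of 10 libraries, with a mean difference of 14.6 ± 15.7 percentage points (SD, n = 10, exact sign-flip permutation, two-sided adjusted p = 0.00273 over 7 measures). Recurrent calls ran from 6.68 to 8.02% T>G per library and private sites from 7.69 to 58.6%. These 2 spreads are not comparable. Libraries share recurrent sites by definition, with 3820 of the 7377 recurrent calls at sites in all 10 lists, and private sites are fewer per library. The 10 within-library differences therefore share much of their recurrent side and are not independent. The sign-flip p-values for class and location treat them as if they were, and should be read with that limit. The T>G difference was 10.5 points without A2iL library 5. Among calls with a quality of at least 30 it was gone: 6.97% of private sites were T>G, against 7.10% of recurrent calls (exact permutation, adjusted p = 0.926). The C>T share was 35.0% of private sites, against 44.1% of recurrent calls, lower in 8 of 10 libraries (exact permutation, adjusted p = 0.0410). This call was lost at a quality of at least 30, where the shares were 42.0 and 44.2% (exact permutation, adjusted p = 0.583), at 20 reads or more (exact permutation, adjusted p = 0.118) and with no alternative read in the control (exact permutation, adjusted p = 0.0775). It was also lost without any 1 of 7 libraries, with a difference of -6.85 points without A2iL library 5 and an adjusted p of at most 0.0820 (exact permutation).

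Location differed in both directions. Introns held 47.3% of private sites, against 29.6% of recurrent calls, higher in 10 of 10 libraries (difference 17.7 ± 9.52 points, SD, n = 10, exact permutation, adjusted p = 0.00273, and 15.4 points without A2iL library 5). Exons held 19.8% of private sites, against 35.2% of recurrent calls, lower in 10 of 10 (difference -15.4 ± 8.80 points, SD, n = 10, exact permutation, adjusted p = 0.00273, and -13.8 points without A2iL library 5). Unlike the T>G excess, both held among calls with a quality of at least 30, with 40.0% intronic among private sites, against 29.4% among recurrent calls, and 22% exonic, against 35.4% (exact permutation, adjusted p = 0.00684 each). Depth moved with location. The median depth of private intronic sites averaged 22.6 reads over the 10 libraries, and that of private exonic sites 86.75. Recurrent calls had such a gap too, with 39.9 reads for intronic and 81.9 for exonic calls. Among calls with 20 reads or more the differences were 12.5 points for introns and -12.0 points for exons (exact permutation, adjusted p = 0.0228 each). With 5 or more alternative reads, where the difference in median depth was 5.8 reads, they were 10.9 points (exact permutation, adjusted p = 0.0383) and -13.3 points (exact permutation, adjusted p = 0.0137).

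**Figure D3:**
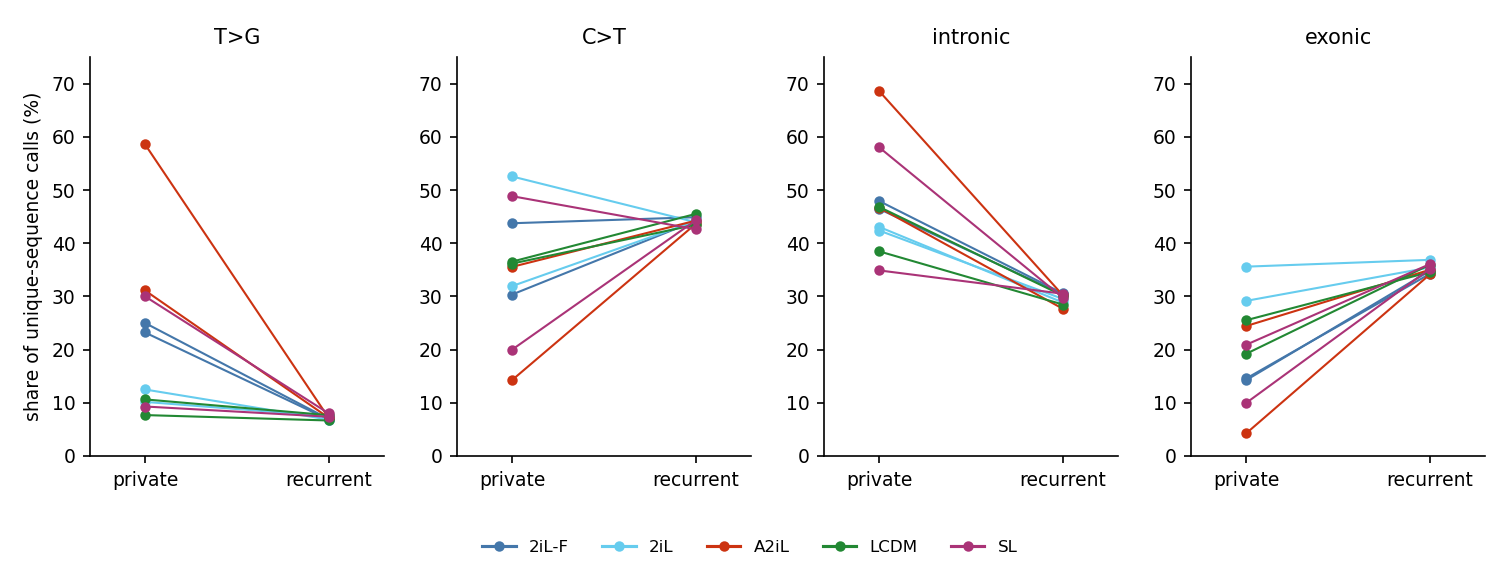
Share in percent of T>G, C>T, intronic and exonic calls among private (left) and recurrent (right) unique-sequence calls, with a line for each of the 10 libraries, coloured by condition. The private T>G and intronic shares are above the recurrent ones in all 10 libraries. Recurrent shares lie close together and private shares spread widely, but libraries share recurrent sites by definition and hold fewer private ones.

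Sites in few or in all lists were the most frequent. There were 542 private sites, 221 in exactly 2 lists, 126 in 3, 54 in 7 and 382 in all 10. The T>G share was 22.7% of private sites and 3.62% of those in exactly 2 lists, and lay between 3.28 and 13.6% for sites in 3 to 10 lists. Intronic sites made up 48.0% of private sites and 25.4 to 33.7% of every other class of occupancy. The exonic share was lowest for private sites, at 19.7%, and highest for sites in all 10 lists, at 43.2%. Median fraction was lowest for sites in 3 lists (0.109) and reached 0.345 for sites in all 10.

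**Figure D4:**
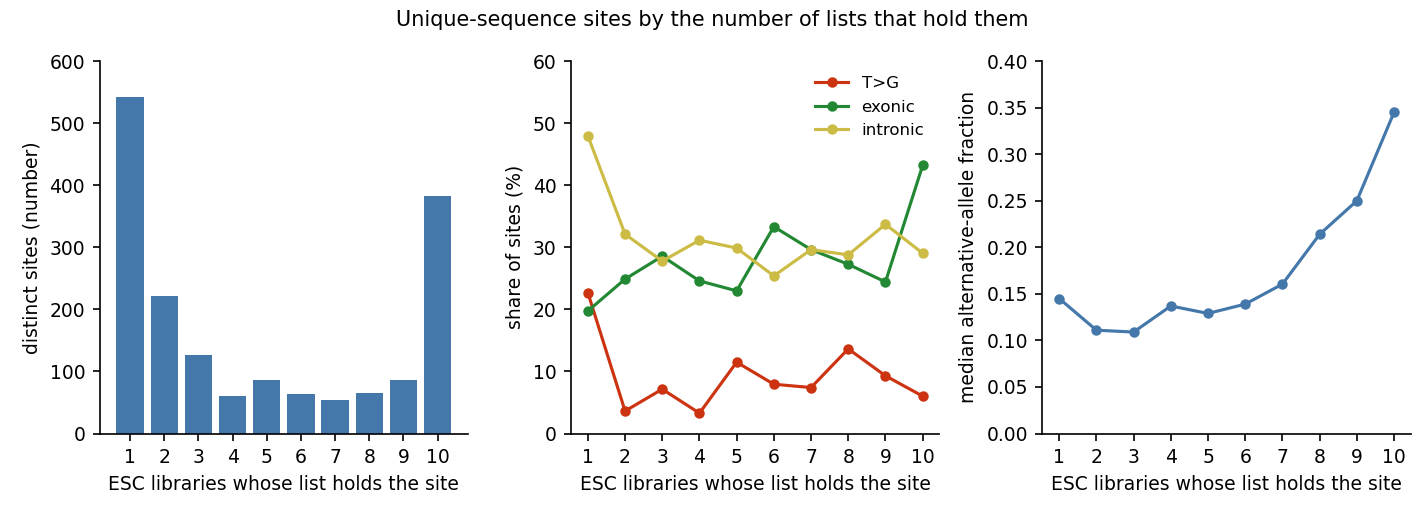
Unique-sequence ESC sites by the number of lists that hold them (x axis, 1 to 10): number of distinct sites (left), share of T>G, exonic and intronic sites in percent (middle) and median alternative-allele fraction (right). The private sites, at 1, have the highest T>G and intronic shares, 22.7 and 48.0%, and the sites in all 10 lists the highest fraction, 0.345.

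The ESC lists hold no 2 calls within 10 kb of each other, the smallest gap in a list being 10017 bp. A site can thus be missing from a list because another call near it was kept, and private sites were marked for calls of other lists within 10 kb. Such a call was present for 170 of the 542 (31.4%), and 372 had none. The share with a neighbour was 32.1 and 29.2% in 2iL-F, 42.4 and 33.3% in 2iL, 31.1 and 17.1% in A2iL, 27.7 and 30.8% in LCDM and 28.0 and 46.5% in SL, and no difference among conditions passed (exact permutation F test, one-sided p = 0.514). Sites without a neighbour numbered 38 and 34 in 2iL-F, 34 and 48 in 2iL, 31 and 58 in A2iL, 34 and 36 in LCDM and 36 and 23 in SL (exact permutation F test, one-sided p = 0.784, and 0.689 without A2iL library 5).

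The nearest call of another list was usually close. Its distance had a median of 183.5 bp, was at most 100 bp for 71 of the 170 sites and at most 1 kb for 132. For 62 sites, calls of all 9 other lists lay within 10 kb. These 62 had a median fraction of 0.2065, and the nearest neighbours' median fraction was 0.2215. For 41 sites only 1 other list had a neighbour, and their median fraction was 0.081. In 61 cases the nearest neighbour was itself private to its list, and in 12 it lay in a duplication or repeat.

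In 6 cases the neighbour lay within 2 bp. In introns of Smad1, which encodes a transducer of bone morphogenetic protein signals, T>G calls stood at adjacent positions of chromosome 8 in A2iL library 3 (79339870, 6 of 34 reads, quality 26) and 2iL-F library 5 (79339871, 8 of 24 reads, quality 22). Adam9 G778D in SL library 5, in a membrane metalloprotease, had 3 of 40 reads, and 3 other lists had a call 1 bp away. The other cases were Ptprh in A2iL library 5 (15 of 328 reads, calls of all 9 other lists nearby), Trmt10a in SL library 3 (27 of 90 reads, likewise) and an intergenic site on chromosome 12 in LCDM library 5 (23 of 140 reads, likewise). These genes are named because they are few, and were chosen after their values were seen.

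Sites without a neighbour differed from those with one in the same library. A call of another list nearby can itself depend on coverage there. Depth is therefore given as a description, and the test of the fraction is no independent support. Median depth averaged 32.3 reads for sites without a neighbour, against 72.45, lower in 10 of 10 libraries. Their median fraction averaged 0.159, against 0.111 (difference 0.0483 ± 0.0400, SD, n = 10, exact permutation, adjusted p = 0.0137), but at 20 reads or more the difference was 0.0014. T>G made up 25.8% of sites without a neighbour, against 11.1% of those with one (exact permutation, adjusted p = 0.0137, with a difference of 11.8 points without A2iL library 5), and 7.07%, against 6.57%, at a quality of at least 30 (exact permutation, adjusted p = 0.871). Introns held 55.1% of sites without, against 30.1% with (higher in 10 of 10 libraries, exact permutation, adjusted p = 0.00684), and 48.3%, against 25%, at a quality of at least 30 (exact permutation, adjusted p = 0.00684). At 20 reads or more both calls were lost, with a T>G difference of 15.7 points (exact permutation, adjusted p = 0.0592) and an intronic difference of 17.1 points (exact permutation, adjusted p = 0.0547).

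**Figure D5:**
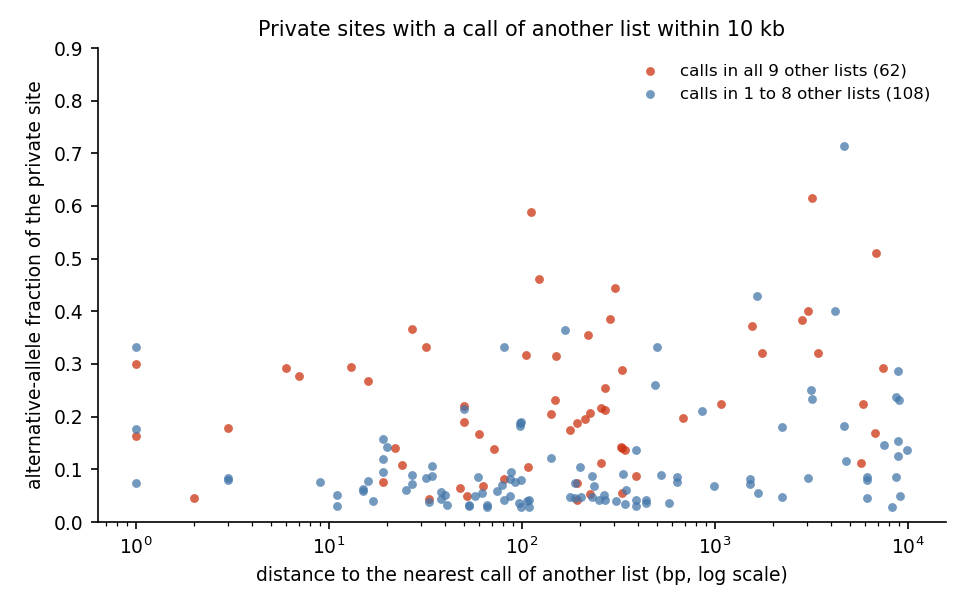
Alternative-allele fraction of the 170 private sites that have a call of another list within 10 kb (y axis), against the distance to the nearest such call in bp (x axis, log scale). Red points have calls of all 9 other lists in the window (62 sites, median fraction 0.2065), blue points those of 1 to 8 other lists (108 sites).

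Read support was thin at many sites. Of the 542, 81 rested on 2 alternative reads and 112 on 3, while 282 had at least 5. Depth was under 20 reads at 142. The median fraction per library was 0.1635 and 0.114 in 2iL-F, 0.091 and 0.127 in 2iL, 0.158 and 0.219 in A2iL, 0.098 and 0.0965 in LCDM and 0.1565 and 0.094 in SL, and no difference among conditions passed (exact permutation F test, one-sided p = 0.217, and 0.551 without A2iL library 5). Median depth averaged 37 ± 4.95 reads in 2iL-F, 46.75 ± 4.60 in 2iL, 37.75 ± 3.18 in A2iL, 41.75 ± 1.06 in LCDM, with 40.5 ± 4.95 in SL (SD, n = 2 each, exact permutation F test, one-sided p = 0.271).

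Most well-covered sites had a fraction below that of a heterozygous change carried by all cells. On the autosomes, 299 private sites had a base quality of at least 30 and at least 20 reads. The Wilson 95% interval of the fraction lay wholly below 0.5 for 290 of them and held 0.5 for 9. By condition these 9 were 2 of 62 sites in 2iL-F, 3 of 84 in 2iL, 0 of 37 in A2iL, 2 of 62 in LCDM, with 2 of 54 in SL. Over all 542 sites, 18 had a fraction above 0.5, and 16 of these had fewer than 20 reads. Fractions below 0.5 were not particular to private sites. Recurrent unique-sequence calls had a median fraction of 0.258 and an upper quartile of 0.417, without a limit on quality or depth. The median was 0.111 for sites in exactly 2 lists and 0.345 for sites in all 10. A count of such intervals is not given here for recurrent calls. Reads carry no molecular identifiers here, so the intervals cover counting error only.

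By annotation, 260 of the 542 sites were intronic, 115 intergenic, 107 exonic, 27 in a 3′ UTR and 7 in a 5′ UTR. A further 9 were downstream of a gene, 7 in introns and 5 in exons of non-coding RNAs, 2 at splice sites, 2 upstream and 1 both upstream and downstream. The exonic share per library was 14.3 and 14.6% in 2iL-F, 35.6 and 29.2% in 2iL, 24.4 and 4.29% in A2iL, 25.5 and 19.2% in LCDM and 10 and 20.9% in SL. The 2iL libraries had the 2 highest shares, on 21 exonic sites each, and A2iL library 5 the lowest, on 3. No difference among conditions passed (exact permutation F test, one-sided p = 0.243, and 0.0931 without A2iL library 5). Against the other 4 conditions 2iL was 15.7 percentage points higher (exact permutation, two-sided p = 0.0444, adjusted 0.222).

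Among sites with no neighbour within 10 kb the exonic share was 15.8 and 14.7% in 2iL-F, 35.3 and 25% in 2iL, 9.68 and 1.72% in A2iL, 26.5 and 22.2% in LCDM and 8.33 and 8.70% in SL. 2iL and LCDM lay above the other 3 conditions with no overlap, and the F test passed (exact permutation, one-sided p = 0.00635, between 0.00317 and 0.0286 without each library in turn). These shares rest on 1 to 12 exonic sites per library, and the F tests here are not adjusted over measures or alternatives. No condition passed against the other 4 after adjustment, the lowest adjusted p being 0.222, for 2iL (30.1%, against 13.5%, exact permutation, two-sided). At a quality of at least 30 the sites without a neighbour were 20 and 20.8% exonic in 2iL-F, 38.7 and 26.2% in 2iL, 9.09 and 0% in A2iL, 29.0 and 23.5% in LCDM and 4.35 and 9.52% in SL, on 0 to 12 exonic sites per library. The F test passed there too (exact permutation, one-sided p = 0.0148, between 0.00741 and 0.0328 without each library in turn, an alternative added after seeing the data), whereas over all private sites at that quality it did not (0.334).

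Of 106 coding sites with a known consequence, 54 were missense, 4 stop gains and 48 synonymous. The protein-changing share, missense and stop gains over coding sites, was 54.7% among private sites, against 48.9% of 366 coding recurrent sites. Protein-changing sites numbered 5 and 3 in 2iL-F, 12 and 13 in 2iL, 4 and 2 in A2iL, 6 and 5 in LCDM and 3 and 5 in SL. As a share of coding sites they gave no difference among conditions that passed (exact permutation F test, one-sided p = 0.966). Of the 58, 39 had no neighbour, 31 had at least 5 alternative reads and 4 had a base quality under 30. Those 4, named because they are few and chosen after their values were seen, were all T>G: Sox9 T505P, in a developmental transcription factor (2iL library 5, 6 of 16 reads, quality 15), Plcb1 K1172Q, in a phospholipase (A2iL library 3, 20 of 93 reads, quality 15), Akap8l Y126S, in a nuclear anchoring protein (A2iL library 5, 6 of 24 reads, quality 17), and Clip3 M288L (SL library 3, 7 of 43 reads, quality 18). The protein-changing share was 65.0% of 60 coding sites without a neighbour and 41.3% of 46 with one, a description with no test.

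Stop gains were found in 4 genes, 1 in each condition except SL. Gpx6 Q217X (chromosome 13, position 21319066, exon 5), in a member of the glutathione peroxidase family, had 13 of 38 reads in LCDM library 3 at a quality of 36. It had no neighbour within 10 kb, and 7 of the 8 tumour lists of the series also held it. Srsf5 R257X (chromosome 12, position 80949937, exon 8), in a splicing factor, had 5 of 60 reads in A2iL library 3, with calls of 4 other lists nearby, the nearest 32 bp away. Ppp3ca S452X (chromosome 3, position 136935044, exon 13), in the catalytic subunit of calcineurin, had 3 of 28 reads in 2iL-F library 3. Tnnt2 E229X (chromosome 1, position 135850807, exon 11), in cardiac troponin T, had 3 of 29 reads in 2iL library 3. The last 2 had no neighbour and no alternative read in the control.

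Both splice-site changes were in SL, 1 in each library. Myo15 (chromosome 11, position 60511121), which encodes an unconventional myosin of inner-ear hair cells, had 4 of 87 reads in SL library 3. Phf20 (chromosome 2, position 156267543), which encodes a component of a histone acetyltransferase complex, had 3 of 44 reads in SL library 5. Whether SL differs from the other conditions in splice-site hits was not tested on so few sites.

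Requiring at least 5 alternative reads, a quality of at least 30 and no neighbour left 10 protein-changing sites: 4 in 2iL-F, 3 in 2iL, 3 in LCDM and 0 in A2iL and SL. The exonic sites with that quality and no neighbour, whatever their reads, were also few. They numbered 6 and 5 in 2iL-F, 12 and 11 in 2iL, 2 and 0 in A2iL, 9 and 8 in LCDM and 1 and 2 in SL. A difference among conditions in the 10 was not tested. In 2iL-F, Ube2l3 E149G (chromosome 16, position 17154147, exon 4), in a ubiquitin-conjugating enzyme, had 7 of 213 reads in library 5. Rrs1 R281Q (chromosome 1, position 9546365), in a ribosome biogenesis factor, and Olfr101 S208P (chromosome 17, position 37299799), in an olfactory receptor of a large multigene family, had 5 of 65 and 5 of 143 reads in library 3. Tmprss5 T232M (chromosome 9, position 49112290, exon 8), in a transmembrane serine protease, had 5 of 53 reads in library 5.

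In 2iL, Slc6a20a T175I (chromosome 9, position 123660453, exon 4), in an amino acid transporter, had 20 of 111 reads in library 3, and 6 tumour lists also held it. Library 5 carried Cdr1 R28W (chromosome X, position 61185477), with 7 of 221 reads, and Trank1 A2472V (chromosome 9, position 111391611, exon 20), with 6 of 72. In LCDM, beside Gpx6, Obsl1 L1037F (chromosome 1, position 75493902, exon 9), in an obscurin-like cytoskeletal protein, had 5 of 135 reads in library 3, and Zfp384 L164F (chromosome 6, position 125024883, exon 6), in a zinc-finger transcription factor, had 5 of 89 in library 5. Apart from Gpx6 (0.342) and Slc6a20a (0.180), these sites had fractions between 0.032 and 0.094.

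Genes of 6 lists (DNA repair and checkpoint, cell cycle and p53, pluripotency, DNA methylation and chromatin, MAPK, Wnt and Src signalling, and tumour suppressors and oncogenes) held 10 of the 427 private sites that lay in genes (2.34%), against 11 of 851 recurrent sites in genes (1.29%), a description with no test. Of these sites in listed genes, 2 of the private and 7 of the recurrent ones were protein-changing. In DNA repair the 3 private sites were intronic. Wrn, which encodes a RecQ helicase, had a site on chromosome 8 at position 33329047 with 3 of 15 reads in LCDM library 3. Atm, which encodes the kinase that signals double-strand breaks, had one on chromosome 9 at position 53458613 with 2 of 5 reads in 2iL-F library 3. Parp1, which encodes a sensor of DNA strand breaks, had a T>G site on chromosome 1 at position 180597200 with 7 of 26 reads at a quality of 16 in 2iL library 3, and the control held 1 alternative read.

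Pluripotency genes held 2 sites. Nanog encodes a transcription factor at the core of pluripotency, and its P61H change (chromosome 6, position 122711568, exon 2) had 7 of 21 reads in 2iL library 5, and all 9 other lists had a call within 10 kb, the nearest 32 bp away. Gdf3, which encodes a ligand of the TGF-beta family, had an intronic site (chromosome 6, position 122609622) with 3 of 41 reads in A2iL library 3. Among tumour suppressors and oncogenes, Pdgfra A530S (chromosome 5, position 75177674, exon 11), in a growth factor receptor, had 4 of 89 reads in 2iL library 5, and intronic sites lay in Egfr (2iL library 5, 2 of 8 reads) and Kmt2a (2iL library 5, 3 of 12 reads). Intronic Rb1 (A2iL library 5, 5 of 74 reads) and synonymous Ptk2 L113L (2iL library 5, 5 of 64 reads), in the focal adhesion kinase, completed the 10.

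Of 388 genes with a private site inside the gene, 366 were hit in 1 library, 19 in 2 and 3 in 3 libraries. A private position cannot be shared by rule, and no like share over all ESC sites is given here. These counts therefore do not show whether such overlap in a gene is rare. The 3 genes hit in 3 libraries were Il20, Itln1 and Slc12a3. Of the 22 genes hit in more than 1 library, 6 had a protein-changing site. Itln1, which encodes the lectin intelectin, had S221F in 2iL library 3 (35 of 184 reads), N88N in A2iL library 3 (38 of 170) and G204G in SL library 5 (28 of 127), all with calls of the other 9 lists nearby, the nearest 50 to 1080 bp away. Las1l, which encodes a ribosome biogenesis factor on chromosome X, had R287C in 2iL library 5 (28 of 75 reads) and Q363Q in A2iL library 3 (16 of 50), again with calls in all 9 other lists.

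In the other 4 genes the support was lower. Elf1, which encodes an ETS transcription factor, had E329G in 2iL library 5 (7 of 86 reads) and I300S in A2iL library 3 (4 of 82), 87 bp apart. Nck2, which encodes an SH2 and SH3 adaptor, had R108C in SL library 5 (6 of 105 reads) and F120F in A2iL library 3 (5 of 114), 38 bp apart. Sptbn1, which encodes a beta spectrin, had L2171S in 2iL library 3 (5 of 58 reads) and an intronic site in LCDM library 5 (3 of 38), 6124 bp apart. Srsf5 had, beside R257X, a 3′ UTR site in A2iL library 5 (3 of 35 reads). In each of these 4 genes a private site lay within 10 kb of a call of another library, so each counts as private only by its exact position.

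In 2iL-F, 2iL, LCDM and SL, the site with most alternative reads had calls of the other 9 lists within 10 kb. These 4 were an intronic site of Lca5, a gene of the cilium, in 2iL-F library 5 (56 of 176 reads), an intergenic site on chromosome 4 in 2iL library 3 (62 of 457), an intergenic site on chromosome 9 in LCDM library 5 (69 of 248) and an intronic site of Agbl3 in SL library 3 (59 of 427). By fraction at 20 reads or more, the highest were an intergenic site in 2iL-F library 5 (0.511), Dennd6b G147G in 2iL library 5 (0.383), an intronic T>G site of Col17a1 in A2iL library 3 (0.381, quality 14), an intronic site of Kif5b in LCDM library 3 (0.615) and an intronic site of Zfp111 in SL library 5 (0.444). Of these 5, Col17a1 alone had no neighbour.

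A last comparison looked for the same changes in the 8 tumour lists of the series, from mice made from ESCs. Of the 542 private sites 18 stood in at least 1 tumour list (3.32%, Wilson 95% interval 2.11 to 5.19%), against 106 of 1146 recurrent sites (9.25%, 7.71 to 11.1%). The 2 intervals did not overlap, but they cover counting error only, over sites pooled from the 10 libraries. The difference was not tested across libraries, and the 2 sets also differed in depth and base quality. Of the 18, 8 were in 1 tumour list and 10 in 2 or more, and none carried a dbSNP identifier. Besides Gpx6 and Slc6a20a, sites in several tumour lists included the synonymous Arid5b A611A (2iL library 3, 26 of 90 reads, 7 tumour lists), Cinp L88L (2iL-F library 3, 10 of 89 reads, 7 lists) and Kcnn2 T276T (LCDM library 3, 4 of 41 reads, 5 lists), and the missense Ptprh G231R (A2iL library 5, 15 of 328 reads, 3 lists), all chosen after seeing the values. The tumour lists were called against blood, not against the MEF control.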

How the data were processed

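Variant lists of exome-captured genomic DNA were read for 10 ESC libraries, and 8 tumour lists were used only to look up shared sites. BWA, SAMtools, Picard and the build mm10 are named in the submitters' processing notes, without versions. A variant caller is not named in these sources. Each deposited line gives, per the file headers, genotype, reads per allele, base quality, depth and alternative-allele fraction for a library and its control, with the authors' annotation. All 18125 ESC lines carried the filter entry PASS, and none had a dbSNP build 142 identifier. The 16 per-sample columns of the tumour lists were not used. Fractions are those deposited, and at 22 of the 542 sites the allele reads did not add up to the depth.

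Sites were matched on chromosome, position and both bases (mm10, counted from 1). Neighbours were calls of another ESC list within 10 kb. Protein changes are those of the first transcript in the deposited annotation. Of 390 gene symbols, 371 stood in a RefSeq table as symbols and 16 as synonyms. Conditions were compared by exact permutation of the F statistic (945 partitions, smallest p 0.00106) and each against the other 4 (45 splits), with Benjamini-Hochberg adjustment over 5 conditions or 6 classes. Within-library differences were tested by exact sign flips (1024 patterns, smallest p 0.00195), adjusted over 7 measures. The tests were tested on simulated data. Python 3.11.15, NumPy 2.4.6, pandas 2.3.3 and SciPy 1.17.1 were used.

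Named sites were every stop gain and splice site, per condition up to 5 protein-changing sites with most alternative reads (at least 5, base quality of at least 30, no neighbour), every site in a listed gene, genes hit in 2 or more libraries, and per condition the site with most alternative reads and that with the highest fraction at 20 or more reads. The site with most alternative reads in A2iL is not reported here. The sites and gene lists were chosen with earlier results of these data known. Alternatives were a base quality of at least 30, at least 20 reads, at least 5 alternative reads, no alternative read in the control, no neighbour, a 1 kb window, a base quality of at least 30 together with no neighbour for the exonic share (chosen after seeing the data), the library number as a block and leaving out each library.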

Additional observations from a re-analysis of the deposited data

Results flagged for a closer look

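A2iL library 5 lay far from the other 9 ESC libraries in 4 measures of its private unique-sequence sites. Its median base quality was 21, against 36.5 to 37 in the others. Its T>G share was 58.6%, against 7.69 to 31.1%. It held 41 T>G sites, against 4 to 15, and 42 sites with a base quality under 30, against 3 to 14. For each, the gap to the nearest other library, divided by the range of all 10, was above Dixon's 95% critical value. Chance flags about 1 in 20 groups, and these 4 measures describe largely the same sites, so they count as 1 pattern. What part the library's run has in it was not tested.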

How the results depend on the processing

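Over the alternatives that keep all 10 libraries, 75 tests across conditions stayed on their side of the threshold and 4 passed where the test over all sites did not. These tests were not adjusted over measures or alternatives. At a threshold of 0.05, a share of about 0.05 of tests passes when no condition differs. Of the within-library differences under these alternatives, 56 kept their direction and their side of the threshold. A further 4 turned in direction, 9 missed the threshold that they had passed and 1 passed it anew. Exact permutation F tests across conditions passed only at a base quality of at least 30 for the number of sites (p = 0.0169) and for the number without a neighbour (p = 0.0381, but lost without any 1 of 8 libraries, up to 0.131), and without neighbours for the exonic share (p = 0.00635, and 0.0148 at a base quality of at least 30 as well). The number at a base quality of at least 30 missed the threshold without 2iL replicate 5 or A2iL replicate 5 (exact permutation p = 0.0519 each). Over all private sites, leaving out a library gave an exact permutation p of 0.0360 (without A2iL replicate 3) to 0.602 for the exonic share and moved no other F test across the threshold.

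In private against recurrent calls, the C>T difference missed the threshold at a base quality of at least 30 (-2.16 points), at 20 reads or more (-7.84) and with no alternative read in the control (-7.88). It ranged from -11.1 to -6.85 points without each library and missed in 7 of those 10 fits. The T>G difference turned to -0.135 points at a base quality of at least 30, and the depth difference to 5.8 reads at 5 or more alternative reads. Median base quality, which did not pass in either comparison, turned from a difference below 0 to 0.2 at a base quality of at least 30 in both, and without A2iL replicate 5 to 0.0556 for private against recurrent calls and 0.278 without against with a neighbour, the lowest value without a library being -1.67 in each. The cause was not tested.

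Without against with a neighbour, the fraction difference missed the threshold at a base quality of at least 30 (0.0297), at 20 reads or more (0.0014) and at 5 or more alternative reads (0.0121). The T>G difference missed it at a base quality of at least 30 (0.495 points) and at 20 reads or more (15.7), and the intronic difference at 20 reads or more (17.1). The exonic difference passed at 5 or more alternative reads (-11.7 points, exact permutation, adjusted p = 0.0273).

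Correlations for libraries with the same number lay between -0.0632 and 0.0013 over 10 pairs of conditions, and the numbers were not taken to pair the samples. The labels do not say what the numbers stand for, so these values do not decide whether they mark a pairing. With the replicate block, the exact permutation p was 0.450 for the number of sites and 0.967 for those without a neighbour, and it changed no call of the fits over all sites. At a base quality of at least 30 the number of sites missed the threshold with the block (exact permutation p = 0.0583, against 0.0169 without it). The base quality of at least 30 removes 60% of the sites of A2iL library 5, and 142 of the 542 sites had under 20 reads, which limits what fractions can show.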
